A study of Homo sapiens with 6 samples.

Results

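Antisense long noncoding RNAs (lncRNAs) named after the gene they lie opposite to, with symbols that end in -AS1, were followed in 5637 cells, an established human bladder cancer cell line. The 396 rows described here are those of the 61860 genes counted whose Ensembl identifier maps to a symbol ending in -AS1 and whose raw count averaged at least 20 over the 6 libraries. They were thus chosen by their mean count over both groups, out of 1646 rows with such a symbol. Each was set beside its sense gene, the gene whose symbol stands before -AS1. A sense gene had a row of its own for 394 of the 396, the exceptions being those of ZNF295-AS1 and HOXB-AS1, and DNAJC9-AS1 stood under 2 Ensembl identifiers.

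RNA was sequenced from 3 libraries labelled siYTHDC1 and 3 libraries labelled siNC, the control. The first label was read as small interfering RNA against YTHDC1, a nuclear reader of m6A, the methyl mark on adenosine in RNA, and the second as its non-targeting control. The labels also mention an infection and a plasmid, so the reagent is not clear from them, and they name no clone, time or dose. Total counts lay between 33223480 and 34858457 in the siYTHDC1 libraries and between 34628360 and 35607577 in the siNC libraries. The YTHDC1 row itself had 161, 18 and 14 counts in the siYTHDC1 libraries and 50, 786 and 55 counts in the siNC libraries. These ranges overlap, so the groups are called by their labels throughout, and a direction is one between libraries so labelled. Of the urothelial and epithelial markers, 10 of 13 were above 1 CPM (counts per 1000000 counts, TMM-scaled) in every library. The uroplakin genes UPK1B, UPK2 and UPK3A were not, at no more than 0.117, 0.809 and 0.150 CPM. Summed levels were 6625 to 6745 CPM in siYTHDC1 libraries and 11713 to 11879 CPM in siNC libraries. Every keratin listed was lower in siYTHDC1 libraries, whereas EPCAM and TP63 were higher there. TP63 had 8044, 7864 and 7751 counts in siYTHDC1 libraries and 6934, 7174 and 7285 in siNC libraries. The 3 immune markers, 1 of them at 0, summed to at most 6.50 CPM in siYTHDC1 libraries and at most 8.03 CPM in siNC libraries, and the 2 endothelial markers to at most 6.81 CPM in siYTHDC1 libraries and 7.09 CPM in siNC libraries. The 3 fibroblast markers summed to 91.3 to 96.5 CPM in siYTHDC1 libraries and 78.2 to 84.5 CPM in siNC libraries. Over the 6 libraries COL1A1 alone held 74.7 to 92.9 CPM of this, and COL1A2 at most 0.0573 CPM. Likewise, CD14 held nearly all of the immune sum, and PTPRC at most 0.0573 CPM. In such bulk RNA, fewer cells of a type and less RNA per cell cannot be told apart, and the part of these marker levels in the fold changes was not tested. The labels do not say whether the replicates were separate cultures, so each p-value speaks only to how far these 6 libraries vary, which could be technical variation.

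Antisense transcripts are transcribed from the strand opposite a gene. Many begin at the promoter of the sense gene and run away from it, others converge on its end, and others lie within its introns. Many such RNAs stay in the nucleus, are spliced inefficiently, or are turned over by the nuclear exosome with its adaptors. YTHDC1 binds m6A on nuclear transcripts and is known for roles in splicing, export and the decay of chromatin-associated RNA.

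The members were mostly scarce. Their mean levels ran between 0.586 and 133 CPM, with a median of 1.94 CPM. Per kilobase of exon free of other genes' exons, the antisense row stood at a median of 0.191 of its sense gene. It exceeded the sense gene in 87 of 388 pairs, and in 140 it was lower by more than 10-fold. Of all members, 247 had a mean count under 100, and the precision of their fold changes is limited accordingly.

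All 396 members passed the expression filter and were tested with edgeR together with all 17372 genes that passed it. A member was called when its adjusted p, from edgeR's quasi-likelihood test with Benjamini-Hochberg adjustment over all genes tested, was under 0.05. By this rule 105 members rose in the siYTHDC1 libraries, 26.5% of them, where 26.3% of all genes tested did. A further 55 members, 13.9%, fell, where 27.1% of all genes did, and 236 were not called. In either direction 40.4% of members and 53.4% of all genes tested were called. Without siNC replicate 2 and siYTHDC1 replicate 1, the libraries with the highest YTHDC1 count of their group, 85 members were higher and 44 lower. The median log2 fold change of the members was 0.17, and that of all genes tested was -0.0004. A log2 fold change above 0 was found in 248 of the 396. The siYTHDC1 libraries lay wholly above the siNC libraries for 128 members and wholly below them for 75. Without overlap between groups, 29.5% of all genes tested were higher and 29.8% lower.

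Low counts bear on these shares, because fewer scarce genes reach the threshold in either direction. Among members with a mean count of 20 to 50, 17.4% rose and 6.71% fell, beside 14.3% and 8.96% of all other genes at that depth. Of the 106 members with a mean count of 100 to 300, 34% rose and 21.7% fell, beside 25.7% and 23.2% of other genes. At counts over 300, 37.2% of 43 members rose and 27.9% fell, beside 32% and 36.5% of other genes. In each of the 4 ranges of counts the share of members that rose was above, and the share that fell below, that of the other genes. Of 1874 other lncRNA genes 21.3% rose and 9.82% fell, and by depth 42% rose and 16.1% fell at 100 to 300 counts and 47.8% and 24.6% at counts over 300, where their rises were more frequent than those of the members. Selection on the mean of both groups let in 24 rows with a mean count under 20 in the siNC libraries only, of which 13 were called, and 16 rows under 20 in the siYTHDC1 libraries only, of which 6 were called.

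**Figure D1:**
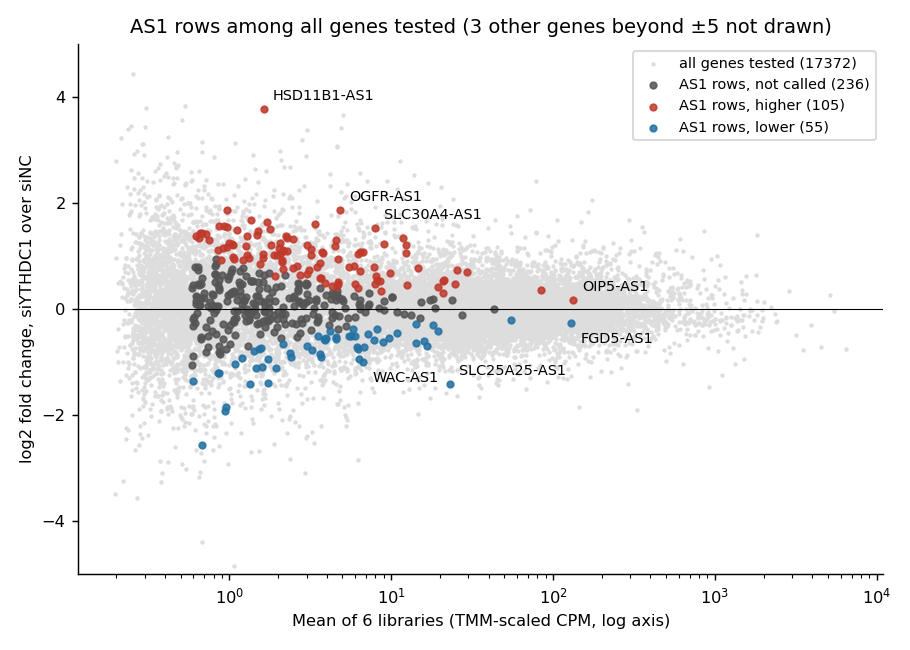
Log2 fold change, siYTHDC1 over siNC, against the mean level of the 6 libraries in CPM on a log axis, with all 17372 genes tested in grey and the AS1 members in colour. The 105 members that rose and the 55 that fell spread over the whole range of levels, and HSD11B1-AS1 stands at 3.78.

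How reads were assigned limits what an antisense count can mean. Libraries were directional per the labels' protocols, and the sources used here do not state how the counting treated strand. All 27 -AS1 rows whose every exonic base lies under exons of the sense gene had 0 counts in all 6 libraries, although 18 of their sense genes averaged at least 1000 counts. RCC2-AS1, for instance, was at 0 opposite RCC2 at 10471 counts. Among genes annotated as antisense that overlap no gene on their own strand, 97.1% of the 310 that lie wholly under exons of the other strand were empty, against 46.8% of the 2355 with no such overlap. Rows of this kind would stay empty where the strand is ignored and reads under 2 genes are dropped. Antisense reads and unspliced sense RNA from the same intron could then not be told apart. A median of 47.0% of a member's exonic bases lay inside a gene of the other strand, and 84 members lay inside one entirely. For the 83 members with at most 10% inside such a gene, 26 rose and 10 fell, or 31.3% and 12%, and their median log2 fold change was 0.18.

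**Figure D2:**
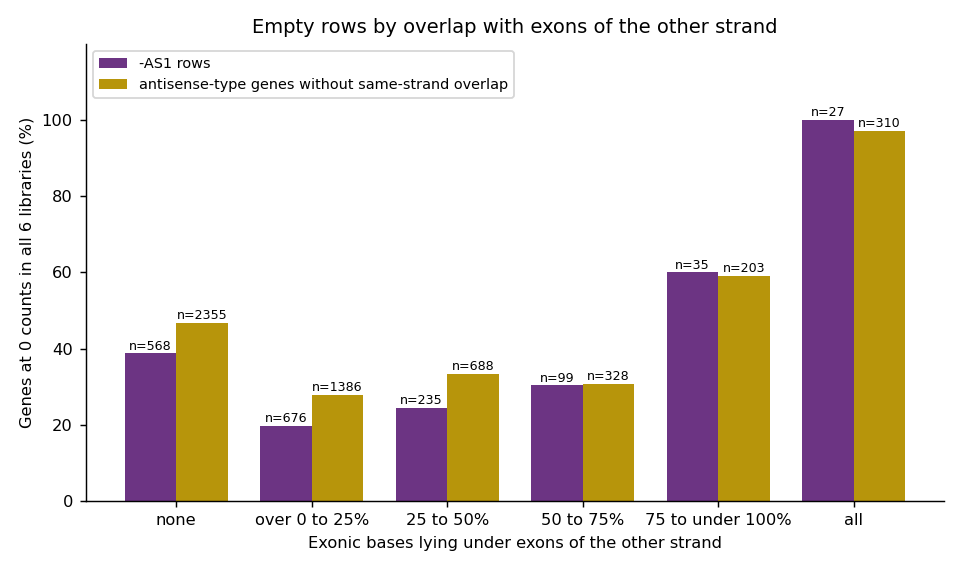
Share of genes at 0 counts in all 6 libraries, in percent, by the share of exonic bases under exons of the other strand, for the -AS1 rows and for genes annotated as antisense without overlap on their own strand. All 27 -AS1 rows that lie wholly under such exons were empty.

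The 6 most abundant members had log2 fold changes between -0.26 and 0.71, and 5 of them were called. OIP5-AS1, known as cyrano, a conserved lncRNA that pairs with miR-7, had 4690, 4837 and 4923 counts in the siYTHDC1 libraries and 4417, 4454 and 4170 in the siNC libraries. These groups did not overlap, and the row rose by 0.18 ± 0.04 on the log2 scale (SE, edgeR adjusted p = 0.000414). Its sense gene OIP5 was called lower, at -0.38, with overlapping groups (edgeR adjusted p = 0.0438). FGD5-AS1 averaged 118 ± 7.29 CPM in siYTHDC1 libraries and 141 ± 1.97 CPM in siNC libraries (SD, n = 3 each) and fell, with a log2 fold change of -0.26 ± 0.04 (edgeR adjusted p = 5.29e-06). Its sense gene FGD5, an exchange factor for the GTPase Cdc42, held 2 counts in all 6 libraries together. THUMPD3-AS1 rose by 0.36 and ALDH1A3-AS1 changed by -0.20, both called by edgeR. Their sense genes were called in the same directions, THUMPD3 at 0.24 and ALDH1A3, a retinaldehyde dehydrogenase, at -0.40. Of the exonic bases of ALDH1A3-AS1, 89.1% lie inside a gene of the other strand, and of those of THUMPD3-AS1, 12.5%. ARRDC1-AS1 averaged 43.2 ± 2.04 CPM in siYTHDC1 libraries and 43.0 ± 2.58 CPM in siNC libraries (SD, n = 3 each), and was not called. SLC9A3-AS1, which lies wholly inside the sodium-proton exchanger gene SLC9A3, rose by 0.71 ± 0.08 (edgeR adjusted p = 7.48e-09), and SLC9A3 rose by 0.89.

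Among members of at least 1 CPM whose groups did not overlap, HSD11B1-AS1 had the largest log2 fold change. It lies at chr1:209661364-209724125 on the minus strand (hg38), head-to-head with HSD11B1, which encodes an enzyme that regenerates active cortisol. Head-to-head here means a partial overlap across the start of the sense gene, at any distance between starts. For this pair the starts lie 37947 bases apart. HSD11B1-AS1 had 107, 104 and 102 counts in the siYTHDC1 libraries and 15, 2 and 6 counts in the siNC libraries. The 3 siYTHDC1 values lie within a few counts of each other and far above every siNC value. It is 1 of the 24 rows that reached a mean of 20 counts through the siYTHDC1 libraries alone, so its log2 fold change of 3.78 ± 0.40 is given as a description, with no test. That value rests on few siNC counts: it was 4.67 without siNC replicate 1 and 3.33 without siNC replicate 2. HSD11B1 itself was nearly silent, with 0 counts in each siYTHDC1 library and 0, 0 and 4 counts in the siNC libraries, and was not tested. None of the exonic bases of HSD11B1-AS1 lay under exons of the other strand, but 20.1% of them lay inside a gene of that strand.

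OGFR-AS1, opposite the opioid growth factor receptor gene OGFR, had 242, 277 and 253 counts in the siYTHDC1 libraries and 92, 65 and 60 counts in the siNC libraries. Its rise was 1.86 ± 0.18 (edgeR adjusted p = 9.53e-10). OGFR rose as well, by 0.89. No exonic base of OGFR-AS1 lies under an exon of OGFR. However, 67.8% of them lie under other exons of that strand, and 85.8% lie inside a gene of that strand. SLC30A4-AS1, opposite the gene of a zinc transporter, had 391, 393 and 420 counts in the siYTHDC1 libraries and 155, 135 and 138 counts in the siNC libraries. The groups stood far apart, and the log2 fold change was 1.52 ± 0.12 (edgeR adjusted p = 3.71e-11). FUT8-AS1 lies inside FUT8, the gene of the core fucosyltransferase of N-glycans, and had 203, 144 and 175 counts in the siYTHDC1 libraries and 46, 62 and 67 counts in the siNC libraries. It rose by 1.60 ± 0.21 and FUT8 by 0.48, both called by edgeR.

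The other members among the 8 largest rises were scarce. TIPARP-AS1, SMIM2-AS1, ILRUN-AS1 and FLRT2-AS1 rose by 1.68, 1.64, 1.52 and 1.49 on the log2 scale. Their mean levels were 1.65 to 2.64 CPM in the siYTHDC1 libraries and 0.586 to 0.922 CPM in the siNC libraries. ILRUN-AS1 varied within both groups: its 66, 134 and 69 counts in the siYTHDC1 libraries and 21, 52 and 23 counts in the siNC libraries each hold 1 high value. Its log2 fold change was 1.08 without siYTHDC1 replicate 2, the library with 134 counts (edgeR adjusted p = 0.0222). Without siNC replicate 2 and siYTHDC1 replicate 1 together the value was 2.26. The sense gene of TIPARP-AS1, TIPARP, a mono-ADP-ribosyltransferase, rose by 0.10 with overlapping groups, and FLRT2, a cell adhesion protein gene, was not called at 0.19. ILRUN rose by 0.55 without overlap between groups, and SMIM2 was not tested. Of the exonic bases of TIPARP-AS1, SMIM2-AS1, ILRUN-AS1 and FLRT2-AS1, 36.6%, 89.2%, 52.7% and 31.5% lie inside genes of the other strand.

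Among members of at least 1 CPM whose groups did not overlap, SLC25A25-AS1 had the largest fall and, of the 8 largest, the highest level. Scarcer members reached log2 fold changes down to -2.56. It lies at chr9:128108581-128118693 on the minus strand (hg38), tail-to-tail with SLC25A25, the gene of a calcium-regulated mitochondrial ATP-Mg/phosphate carrier. It had 404, 431 and 461 counts in the siYTHDC1 libraries and 1113, 1238 and 1181 counts in the siNC libraries. Every siYTHDC1 library was far below every siNC library, and the log2 fold change was -1.42 ± 0.08 (edgeR adjusted p = 3.24e-14). SLC25A25 rose by 0.22, and 10.4% of the antisense exonic bases lie inside a gene of the other strand.

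WAC-AS1 starts 250 bases from WAC, whose product is an adaptor of histone H2B ubiquitination. It had 165, 157 and 138 counts in the siYTHDC1 libraries and 297, 325 and 313 counts in the siNC libraries, a log2 fold change of -0.995 ± 0.13 (edgeR adjusted p = 4.10e-07). The WAC groups overlapped, at 152 ± 5.46 CPM in siYTHDC1 libraries and 149 ± 3.96 CPM in siNC libraries (SD, n = 3 each), and WAC was not called. UFD1-AS1 had 24, 36 and 15 counts in the siYTHDC1 libraries and 70, 86 and 49 counts in the siNC libraries, and fell by 1.41 ± 0.35 (edgeR adjusted p = 0.00122). UFD1, a ubiquitin-binding partner of the p97 ATPase, rose by 0.21. ATP6V0E2-AS1, PPM1F-AS1 and CIRBP-AS1 fell by 1.39, 1.12 and 1.12, and the sense gene of each fell too, by 0.45, 0.27 and 0.20. In the same order, 26.3%, 88.9% and 100% of their exonic bases lie inside genes of the other strand. RAB33B-AS1 changed by -1.08 and ZNF497-AS1 by -1.03, each on fewer than 100 counts a library. The RAB33B-AS1 call was lost without siNC replicate 2 and siYTHDC1 replicate 1 together (edgeR adjusted p = 0.0792), its value was -1.67 without siYTHDC1 replicate 3, and that of ZNF497-AS1 in 3 of 15 alternatives, with an edgeR adjusted p of up to 0.0758 without siNC replicate 1.

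**Figure D3:**
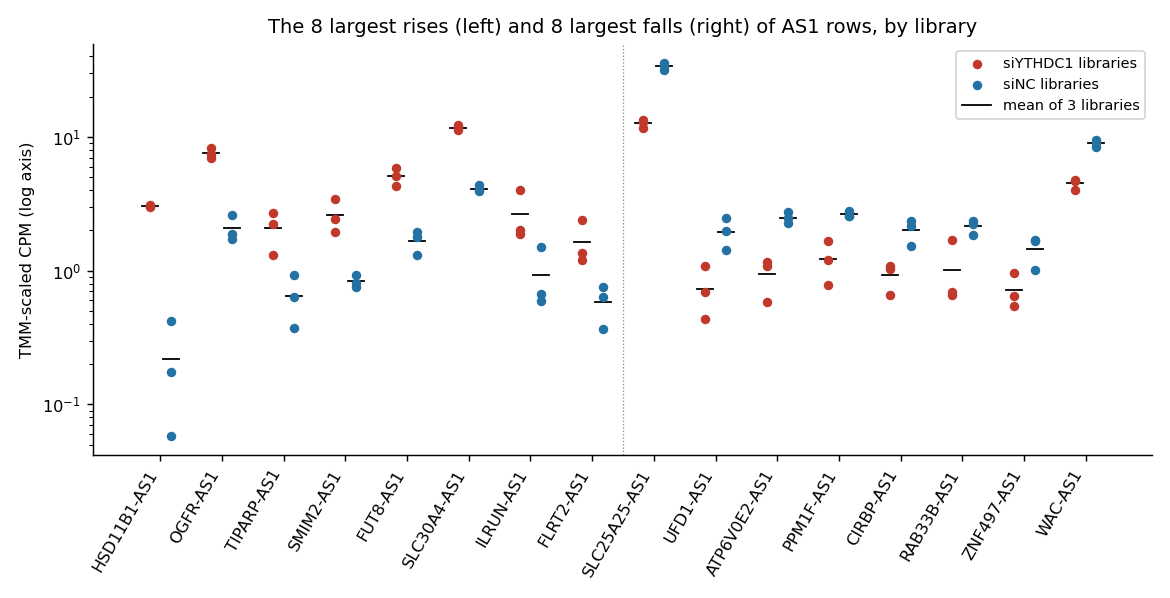
Level of the 8 largest rises and 8 largest falls among members of at least 1 CPM in each library, in CPM on a log axis, with siYTHDC1 libraries left of siNC libraries and a bar at the mean of 3. The groups do not overlap in any of the 16, which was a condition of the choice, and HSD11B1-AS1 and SLC25A25-AS1 have the widest gaps among them on each side.

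Of the 370 sense genes that were tested, 97 rose, 131 fell and 142 were not called, or 26.2% higher and 35.4% lower, with a median log2 fold change of -0.06. Their median mean count was 1428. Genes other than members with a mean count over 300 stood at 32% higher and 36.5% lower, a larger share of rises and a similar share of falls. In 371 pairs with both genes tested, the log2 fold change of the antisense row was above that of its sense gene in 228 and below it in 143, with a median difference of 0.15. Both genes were called in 93 pairs, of which 56 moved in the same direction and 37 in opposite directions. Without siNC replicate 2 and siYTHDC1 replicate 1, 41 pairs were called in the same and 18 in opposite directions. Antisense and sense both rose in 26 pairs and both fell in 30. The antisense rose while the sense gene fell in 30 pairs, and the reverse held in 7. Members as a whole had more rises than falls, 105 and 55, and sense genes more falls than rises, 131 and 97. Whether the 30 and 7 go beyond what these totals alone would give was not tested. Across the 371 pairs the log2 fold changes had a Pearson correlation of 0.231 and a Spearman correlation of 0.181. These are descriptions across genes, which share libraries and, within a pair, reads from the same locus.

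**Figure D4:**
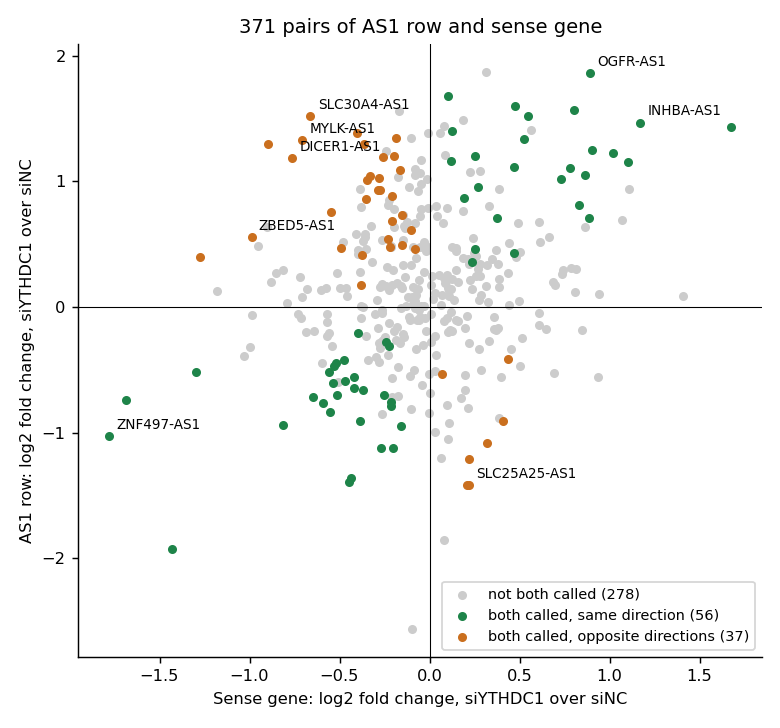
Log2 fold change, siYTHDC1 over siNC, of each AS1 row against that of its sense gene in 371 pairs, with pairs called in the same direction in green and pairs called in opposite directions in orange. The upper left area holds 30 of the 37 opposite pairs, where more members rose than fell and more sense genes fell than rose.

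Pairs were ranked by the smaller of their 2 absolute log2 fold changes, among pairs with both genes at 1 CPM or more, and on that scale DICER1-AS1 and DICER1 came first of the opposite pairs. DICER1-AS1 begins 365 bases from the start of DICER1, the ribonuclease that cuts microRNA precursors, and runs the other way at chr14:95157645-95179933 on the plus strand (hg38). DICER1-AS1 had 260, 185 and 198 counts in the siYTHDC1 libraries and 82, 91 and 114 counts in the siNC libraries. DICER1 had 1822, 1678 and 1725 counts in the siYTHDC1 libraries and 2960, 3003 and 3078 counts in the siNC libraries. Both rows separated the groups, in opposite directions. The log2 fold change was 1.19 ± 0.18 for DICER1-AS1 (edgeR adjusted p = 2.96e-06) and -0.76 ± 0.05 for DICER1 (edgeR adjusted p = 1.11e-13). The log2 ratio of antisense to sense CPM averaged -3.04 ± 0.20 in siYTHDC1 libraries and -4.99 ± 0.21 in siNC libraries (SD, n = 3 each). An exact 2-sided permutation test of this ratio gave p = 0.1, the smallest that 3 libraries against 3 allow. The pair was chosen for its opposite calls, as were others of the 21 pairs whose ratios were compared, so the ratio is a description.

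ZBED5-AS1 and ZBED5, a gene derived from a DNA transposase, also share a start region. ZBED5-AS1 had 322, 326 and 349 counts in the siYTHDC1 libraries and 237, 231 and 224 counts in the siNC libraries, a rise of 0.56 ± 0.12 (edgeR adjusted p = 0.000203). ZBED5 had 1506, 1395 and 1707 counts in the siYTHDC1 libraries and 3126, 3155 and 3040 counts in the siNC libraries, a log2 fold change of -0.99 ± 0.05 (edgeR adjusted p = 1.62e-14). Here the sense gene moved further than the antisense row. The log2 ratio of SLC30A4-AS1 to SLC30A4 in CPM averaged 0.40 ± 0.07 in siYTHDC1 libraries and -1.78 ± 0.16 in siNC libraries (SD, n = 3 each), and SLC30A4 fell by 0.66. MYLK-AS1 rose by 1.33 and MYLK, the myosin light chain kinase gene, fell by 0.71. ID2-AS1 rose by 0.76 and ID2, an inhibitor of basic helix-loop-helix factors, fell by 0.55, but the ID2-AS1 call was lost in 4 of 15 alternatives, with an edgeR adjusted p of up to 0.103 without siNC replicate 2.

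The sequence around the starts is shown for 3 of the named pairs that start within 1 kb of each other and were not called alike, DICER1, ZBED5 and WAC, and for HSD11B1-AS1 and SLC30A4-AS1, whose windows hold an AP-1 match. The choice was made with the values in view, and other pairs, RAB33B and FLRT2 among the named ones, also start that close and were not called alike. Each window runs from 250 bases before to 50 bases after the RefSeq start on GRCh38.p14 and reads 5′ to 3′ on the strand of the gene. Capitals mark matches on either strand to GGGCGG (the GC box), CCAAT and TGANTCA, and matches can overlap. TGANTCA is a loose form of the AP-1 motif that allows any base in the middle.

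DICER1-AS1: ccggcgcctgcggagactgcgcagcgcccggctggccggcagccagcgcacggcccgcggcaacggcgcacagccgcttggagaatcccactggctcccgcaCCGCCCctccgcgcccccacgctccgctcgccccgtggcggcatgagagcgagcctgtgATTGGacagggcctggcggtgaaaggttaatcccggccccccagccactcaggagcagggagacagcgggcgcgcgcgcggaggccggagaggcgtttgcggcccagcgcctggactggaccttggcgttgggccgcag

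DICER1: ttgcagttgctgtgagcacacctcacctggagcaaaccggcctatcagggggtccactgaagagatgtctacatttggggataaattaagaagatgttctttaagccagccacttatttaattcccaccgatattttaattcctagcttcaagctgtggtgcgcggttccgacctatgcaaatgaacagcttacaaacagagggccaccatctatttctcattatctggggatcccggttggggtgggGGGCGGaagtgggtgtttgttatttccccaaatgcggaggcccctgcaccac

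ZBED5-AS1: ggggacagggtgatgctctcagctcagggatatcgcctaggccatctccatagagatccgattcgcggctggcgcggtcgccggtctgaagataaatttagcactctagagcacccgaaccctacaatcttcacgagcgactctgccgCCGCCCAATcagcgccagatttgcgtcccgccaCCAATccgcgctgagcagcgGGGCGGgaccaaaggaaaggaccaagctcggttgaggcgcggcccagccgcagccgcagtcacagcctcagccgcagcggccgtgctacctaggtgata

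ZBED5: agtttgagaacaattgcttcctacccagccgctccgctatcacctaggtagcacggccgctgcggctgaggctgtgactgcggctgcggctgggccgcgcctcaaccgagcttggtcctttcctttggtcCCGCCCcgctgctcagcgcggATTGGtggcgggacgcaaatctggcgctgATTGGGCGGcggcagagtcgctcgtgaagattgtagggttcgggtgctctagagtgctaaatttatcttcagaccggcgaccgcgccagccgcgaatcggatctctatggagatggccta

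WAC-AS1: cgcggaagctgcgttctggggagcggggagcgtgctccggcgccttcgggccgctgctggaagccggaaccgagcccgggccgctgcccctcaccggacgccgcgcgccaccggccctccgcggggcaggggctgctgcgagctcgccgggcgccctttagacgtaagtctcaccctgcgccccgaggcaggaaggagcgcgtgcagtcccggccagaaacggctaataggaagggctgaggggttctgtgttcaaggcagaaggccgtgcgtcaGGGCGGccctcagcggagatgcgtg

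WAC: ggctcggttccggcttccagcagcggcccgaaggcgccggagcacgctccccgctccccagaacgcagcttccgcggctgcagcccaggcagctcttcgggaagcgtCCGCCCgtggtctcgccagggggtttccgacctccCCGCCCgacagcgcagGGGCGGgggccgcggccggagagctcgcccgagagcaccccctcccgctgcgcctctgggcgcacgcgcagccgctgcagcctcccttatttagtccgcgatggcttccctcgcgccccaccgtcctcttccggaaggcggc

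HSD11B1-AS1: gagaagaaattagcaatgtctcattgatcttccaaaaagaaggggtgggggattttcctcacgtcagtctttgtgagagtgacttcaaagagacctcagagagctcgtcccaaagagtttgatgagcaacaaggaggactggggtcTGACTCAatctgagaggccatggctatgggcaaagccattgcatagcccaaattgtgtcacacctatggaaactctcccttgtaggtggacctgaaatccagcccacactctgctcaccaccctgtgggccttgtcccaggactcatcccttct

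SLC30A4-AS1: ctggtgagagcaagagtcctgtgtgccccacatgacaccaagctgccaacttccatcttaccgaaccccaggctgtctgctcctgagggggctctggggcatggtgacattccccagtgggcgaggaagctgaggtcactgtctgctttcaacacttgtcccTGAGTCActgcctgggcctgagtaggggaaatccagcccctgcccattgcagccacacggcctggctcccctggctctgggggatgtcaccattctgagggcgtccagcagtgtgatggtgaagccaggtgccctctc

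The windows lie at chr14:95157438-95157737 on the plus strand for DICER1-AS1 and chr14:95157961-95158260 on the minus strand for DICER1, at chr11:10857967-10858266 on the plus strand for ZBED5-AS1 and chr11:10858004-10858303 on the minus strand for ZBED5, and at chr10:28532305-28532604 on the minus strand for WAC-AS1 and chr10:28532529-28532828 on the plus strand for WAC. Those of HSD11B1-AS1 and SLC30A4-AS1 lie at chr1:209724076-209724375 on the minus strand and chr15:45448104-45448403 on the plus strand. The ZBED5 windows share 263 bases and the WAC windows 76, so a single stretch of DNA lies in the window of a row that rose and of one that fell, or of one that fell and of one not called. The RefSeq starts used lay 743 bases from the GENCODE start for ZBED5, 42 for ZBED5-AS1, 389 for WAC-AS1 and 286 for WAC. Distances between starts given in the text are from GENCODE, so the shared bases depend on the annotation chosen. The DICER1 windows share none, and GC content differed, at 75% for DICER1-AS1 and 49.7% for DICER1. Neither HSD11B1-AS1 nor SLC30A4-AS1 has a GC box in its window, and each holds 1 match to the AP-1 motif.

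RefSeq windows were found for 294 of the 396 members. GGGCGG was present in 62.6% of them and in 44.9% of all 34943 windows, and TATAAA in 4.76% of members and 11.6% of all. The full set of windows was not limited by counts, as the members were, so it is not a matched background. GC box shares were close between members that rose, fell and were not called, at 60.7%, 63% and 63.5%. TGANTCA was found in 11 of the 89 members that rose, in 1 of 46 that fell and in 5 of 159 not called. These are 12.4%, 2.17% and 3.14%, beside 7.72% of all windows. TGANTCA is 1 of several strings searched, and it is singled out here with the shares of all of them in view. CCAAT was found in 37.1% of members that rose, 32.6% of those that fell and 28.3% of those not called. For TATAAA these shares were 2.25%, 8.7% and 5.03%. The longer strings searched were each found in at most 6.52% of members that rose, fell or were not called. All these shares were compared without a test. Rows that, like HSD11B1-AS1, reached the count limit through the siYTHDC1 libraries alone could be called only as rises. How many of the 11 are such rows was not counted, so the part of the count limit in the 12.4% is not known. Scarce rows among the 11 include CEACAM16-AS1 and FKBP14-AS1, at means of 0.868 and 0.674 CPM over the 6 libraries. Beside HSD11B1-AS1 and SLC30A4-AS1, the 11 members that rose and hold TGANTCA include MYLK-AS1, whose match reads TGAATCA. They also include ADIRF-AS1 with a rise of 1.05 and GABPB1-AS1 with a rise of 0.73, both named after their values were seen. GC content of the windows also varied, with a median of 62.3% for members that rose and 66% for those that fell. These are matches of letters, not binding sites. The string GGAC, the core of the m6A motif, occurred at a median of 3.67 per kilobase of transcript in members that rose, 3.79 in members that fell and 3.70 in those not called.

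By the same ranking and the same limit of 1 CPM, INHBA-AS1 came first of the pairs called in the same direction, head-to-head with INHBA, the gene of the activin beta A subunit. Their starts lie 11918 bases apart. Below the limit of 1 CPM, FKBP14-AS1 at 1.43 and FKBP14 at 1.68 ranked above INHBA-AS1. INHBA-AS1 had 92, 65 and 69 counts in the siYTHDC1 libraries and 33, 28 and 22 counts in the siNC libraries, and INHBA had 10182, 9269 and 9352 counts in the siYTHDC1 libraries and 4417, 4343 and 4280 counts in the siNC libraries. Both rose, INHBA-AS1 by 1.47 ± 0.31 (edgeR adjusted p = 0.000197) and INHBA by 1.17 ± 0.03 (edgeR adjusted p = 9.17e-21), and their ratios overlapped between groups. TRHDE-AS1 lies inside TRHDE, whose product degrades thyrotropin-releasing hormone, and had 492, 414 and 388 counts in the siYTHDC1 libraries and 186, 186 and 193 counts in the siNC libraries. It rose by 1.22, and TRHDE, at 61, 101 and 78 counts in the siYTHDC1 libraries and 36, 37 and 48 counts in the siNC libraries, rose by 1.02. All exonic bases of TRHDE-AS1 lie inside TRHDE. DCST1-AS1 rose by 1.05 and DCST1 by 0.86, while ZNF497 fell by 1.78 beside ZNF497-AS1.

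**Figure D5:**
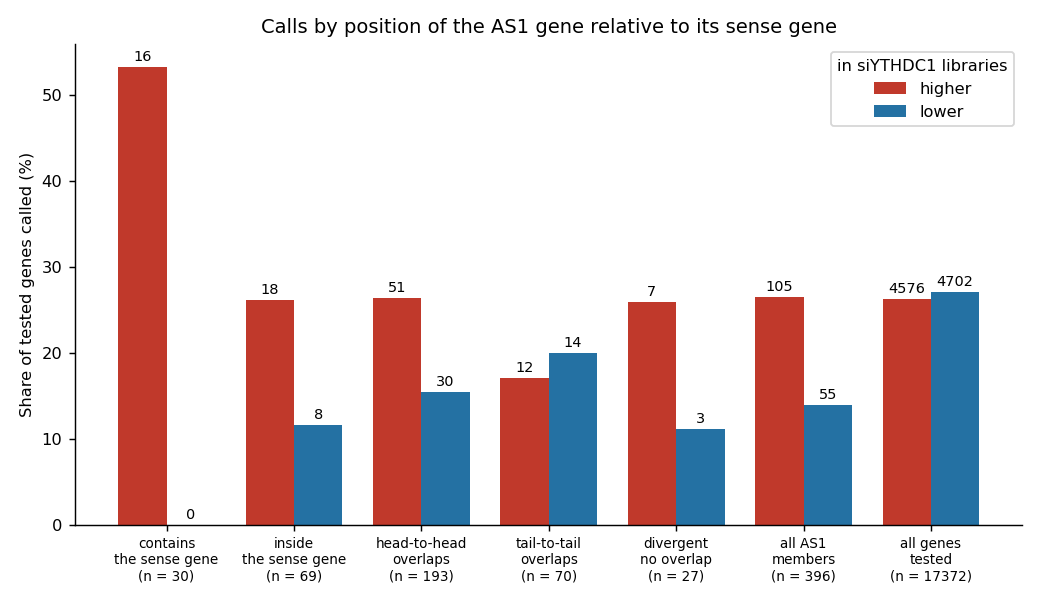
Share of tested genes called higher or lower in siYTHDC1 libraries, in percent, by the position of the AS1 gene relative to its sense gene, with all members and all genes tested at the right. Numbers above the bars count genes, and of the 30 members that contain their sense gene 16 rose and 0 fell.

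The position of an antisense gene relative to its sense gene was read from GENCODE 29. All genes tested stood at 26.3% higher and 27.1% lower, and the shares of rises among head-to-head, inside and divergent members were near that. Of the 193 members head-to-head with an overlapping sense gene, 51 rose and 30 fell. Of the 70 tail-to-tail, 12 rose and 14 fell. Of the 69 inside the sense gene, 18 rose and 8 fell, and of the 27 divergent without overlap, 7 rose and 3 fell. The 30 members that contain their sense gene had the highest share of rises of the 5 positions drawn, with 16 higher, 0 lower and a median log2 fold change of 0.47. TBX2-AS1 and NUTM2A-AS1, chosen after their values were seen for their small overlap with other-strand genes, rose by 1.20 and 0.52 there. Pairs in which the antisense lies inside the sense gene had the highest Pearson correlation of the 5, 0.487 over 66 pairs, where tail-to-tail pairs gave -0.141 over 64. Antisense rows inside the sense gene are also those whose reads can come from its unspliced RNA, and the part of this in the correlation was not tested.

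Of 24 AS1 lncRNAs listed for roles in cancer, 20 were members and 21 were tested. Of those tested 3 rose and 4 fell, or 33.3% called where 53.4% of all genes were, with a median log2 fold change of 0.10. Without scaling, with upper-quartile scaling or with a filter of 1 CPM, 5 rose. ZEB1-AS1 rose by 1.14 ± 0.23 (edgeR adjusted p = 0.000135), with 162, 147 and 141 counts in the siYTHDC1 libraries and 101, 51 and 57 counts in the siNC libraries. ZEB1, a driver of epithelial-mesenchymal transition, had at most 6 counts in any library and was not tested. PSMA3-AS1 fell by 0.70 and PSMA3, a proteasome subunit gene, by 0.25. GATA3-AS1 and GATA3, a luminal urothelial factor, changed by -0.55 and -0.42; both were called, but GATA3-AS1 was lost in 2 of 15 alternatives, with an edgeR adjusted p of up to 0.122 without siYTHDC1 replicate 2.

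Genes that act on such transcripts were counted beside them. Of 22 genes of the nuclear exosome and its adaptors, 3 rose and 8 fell, or 50% called, with a median log2 fold change of -0.006. Of 14 Integrator genes, which end transcription at many noncoding loci, 3 rose and 5 fell, or 57.1% called, with a median of -0.11. Both shares lie near the 53.4% of all genes tested. Only 1 Integrator gene rose without siNC replicate 1 or without siNC replicate 3, and 3 fell without siNC replicate 2 and siYTHDC1 replicate 1 together. Related noncoding names gave 59 higher and 20 lower of 199 divergent transcripts ending in -DT, and 84 higher and 27 lower of 208 LINC genes, each at a mean count of at least 20, or 29.6% and 10.1% of the first and 40.4% and 13% of the second. Names ending in -AS, -AS2 or -AS3 gave 9 higher and 8 lower of 43, with a median log2 fold change of 0.05.

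At the threshold of 20 counts, GTF2A1-AS1 and JMJD1C-AS1 lay just inside, at mean counts of 20.3 and 20.2, with log2 fold changes of -1.05 and 0.39. ESAM-AS1 and SGMS1-AS1 lay just outside, at 19.8 and 19.7, with log2 fold changes of 0.84 and -0.32.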

How the data were processed

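RNA from 3 libraries labelled siYTHDC1 and 3 labelled siNC was sequenced, and the deposited values are raw counts per Ensembl gene, not normalized. The build was hg38, according to the submitters' processing notes; aligner, counting program and strand setting: not given in the sources used here. Symbols were matched to 61757 identifiers by a table and to 101 by GENCODE 29, which also gave positions and exons. Counts were fitted with edgeR 4.0.16 in R 4.3.3 (TMM scaling, filterByExpr, group as the only term), adjusted over the 17372 genes tested and called at 0.05; the fit was tested on simulated data. CPM are TMM-scaled counts per 1000000 counts, and errors are SD over 3 libraries or SE. Total counts of 33223480 to 35607577 set the precision. Named members were up to 8 largest rises and falls of at least 1 CPM with no overlap between groups, the 6 most abundant, up to 5 pairs called in each of the same and opposite directions, called members of a cancer list, those next to the threshold of 20, and their sense genes. Members and lists were chosen with earlier results of these data known. Motifs were searched on both strands of RefSeq windows (GRCh38.p14). Alternatives were DESeq2 1.42.0, limma-voom (limma 3.58.1), other scalings and filters, other member limits and leaving out libraries.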

Additional observations from a re-analysis of the deposited data

How the results depend on the processing

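Across 15 other fits, 85 to 110 members were higher and 44 to 55 lower. DESeq2 called 104 higher and 53 lower, all of them also called by edgeR with TMM scaling. Without siNC replicate 2 and siYTHDC1 replicate 1 together, 85 were higher and 44 lower, 81 and 42 of them shared with the full fit, and 18 pairs were called in opposite directions. Leaving out 1 library at a time gave 94 to 101 higher and 44 to 51 lower. Replicate numbers did not pair the libraries (correlations of -0.0165 to 0.00545 for the same number), and with a replicate block 103 were higher and 53 lower. Other limits on members have fewer rows by construction. At a mean count of at least 50, 54 sense genes were higher. At a mean count of at least 100, 52 members were higher and 35 lower, 27 sense genes were higher and 55 lower, and 28 pairs were called in the same and 18 in opposite directions. With at most 10% of exonic bases inside genes of the other strand, a limit chosen after seeing the data as was leaving out both libraries, 26 members were higher, 10 lower, and 14 pairs were called in the same and 10 in opposite directions. Values near 0 changed sign when 1 library was left out: the log2 fold change of ARRDC1-AS1 ran between -0.0246 (without siYTHDC1 replicate 1) and 0.0579 (without siNC replicate 2) and was also below 0 without siNC replicate 1 or siNC replicate 3, and that of JMJD1C-AS1 between -0.00322 (without siYTHDC1 replicate 2) and 0.615. The difference between groups in the log2 ratio of TRHDE-AS1 to TRHDE ran between -0.0606 (without siYTHDC1 replicate 1) and 0.428, and that of DCST1-AS1 to DCST1 between -0.164 (without siNC replicate 3) and 0.613. Both ratios overlapped between groups with all 6 libraries.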
